A study of Homo sapiens with 9 samples.

Results

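The matrix metalloproteinases (MMPs), the ADAM and ADAMTS proteases and their tissue inhibitors (TIMPs) were examined in HepG2 cells, a line grown from a human liver tumour that keeps much of the hepatocyte's gene program, 24 h after exposure to recombinant SPARC. Members were all genes whose platform symbol was MMP, ADAM or ADAMTS followed by a number, or one of TIMP1 to TIMP4. There were 62 of them among 17687 genes on the array, comprising 22 MMP, 19 ADAM, 18 ADAMTS and 3 TIMP genes, each represented by 1 transcript cluster. RefSeq lists 66 protein-coding genes with such symbols, and MMP23B, ADAM7, ADAMTS7 and TIMP2 were not analysed here.

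Biotin-labelled material from total RNA was read on 1-colour arrays. The 9 arrays comprised 3 of untreated cells, 3 of cells given SPARC at 200 ng/ml and 3 of cells given SPARC at 800 ng/ml. No label says whether replicates were separate cultures, so the p-values weigh differences against a spread between samples that could be purely technical. SPARC is a secreted glycoprotein that binds collagen and is itself cut by several MMPs.

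MMPs are zinc proteases that degrade collagens and other matrix proteins, either secreted or anchored to the cell surface. ADAMs are mostly transmembrane proteins that release the outer parts of receptors, ligands and adhesion proteins, and several of them have lost the catalytic zinc site. ADAMTS enzymes are secreted and act on proteoglycans, procollagens and microfibrils. TIMPs bind these enzymes and block them, and in the liver the balance between MMPs and TIMPs is known for its part in building and resolving fibrosis.

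9 of the MMP genes stand side by side in RefSeq (GRCh38.p14) with no other protein-coding gene between them, in the order MMP7, MMP20, MMP27, MMP8, MMP10, MMP1, MMP3, MMP12 and MMP13, and all 9 were on the array. Promoter sequence from RefSeq was at hand for 37 of the 62 members. In the 250 bases before the start of the gene, the AP-1 motif TGANTCA (searched on both strands, which read alike except at N) was found in 3 of 5 promoters from this row of genes, against 5.07% of 14250 promoters of genes on the array. The TATA box TATAAA, on either strand, was found in 4 of the same 5 promoters against 8.99% of all promoters. The GC box GGGCGG, on either strand, was found in 0 of the 5 against 57.0% of all promoters, and in 10 of 11 ADAMTS promoters. A match is a run of letters and does not show that a factor binds. MMP1, MMP3, MMP12 and MMP13 of the row had no promoter at hand and were not searched. The 150 bases before the start are shown for the 3 searched genes of the row in which an AP-1 motif was found. They are also shown for ADAMTS10, the member with the largest difference between the doses. AP-1, TATA and GC motifs are in capitals, in build GRCh38.p14, written 5′ to 3′ along the gene's strand.
MMP7, chr11:102530748-102530897, minus strand: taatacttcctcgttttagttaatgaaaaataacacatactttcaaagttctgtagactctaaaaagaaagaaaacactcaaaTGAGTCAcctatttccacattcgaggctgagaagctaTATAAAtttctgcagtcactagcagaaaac
MMP10, chr11:102780629-102780778, minus strand: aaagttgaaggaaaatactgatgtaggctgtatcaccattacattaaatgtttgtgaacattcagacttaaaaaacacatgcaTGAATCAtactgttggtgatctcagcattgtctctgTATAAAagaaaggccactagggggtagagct
MMP20, chr11:102625333-102625482, minus strand: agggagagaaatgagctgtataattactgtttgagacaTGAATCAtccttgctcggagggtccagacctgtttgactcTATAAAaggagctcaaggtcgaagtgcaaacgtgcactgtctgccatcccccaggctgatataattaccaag
ADAMTS10, chr19:8610716-8610865, minus strand: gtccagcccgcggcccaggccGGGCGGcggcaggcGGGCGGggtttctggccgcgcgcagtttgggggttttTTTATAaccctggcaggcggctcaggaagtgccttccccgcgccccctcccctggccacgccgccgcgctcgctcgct
None of the motifs in capitals overlap. In MMP7 and MMP10 the AP-1 motif covered the same bases, −67 to −61 counted back from the start, and the TATA box began at −30 and −31. In MMP20 both motifs lay further upstream, beginning at −112 and −72. ADAMTS10 had GC boxes beginning at −129 and −115 and a TATA box on the opposite strand beginning at −78.

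Untreated replicate 2 differed from every other array, with correlations of 0.891 to 0.920 across genes to the other 8 against 0.979 to 0.991 among those. In this array dim genes were higher and bright genes lower than in untreated replicates 1 and 3. When all genes were ranked by mean signal over the other 8 arrays and cut into 4 equal bins, 32 members fell in the dimmest bin, 20 in the next, 5 in the one above and 5 in the brightest. Untreated replicate 2 was the highest of the 9 arrays for 29 of the 62 members, against 32.5% of all genes, and the lowest for 10, against 41.7% of all genes. Of the 18 ADAMTS genes it was the highest array for 11. Differences of members from untreated cells are therefore given with all 9 arrays and, for the members described singly, also without this array. The mean log2 signal of 9 hepatocyte markers was 10.32 on untreated replicate 2 and between 10.46 and 10.62 on the other 8 arrays. That of 12 blood and Kupffer cell markers was 6.12 against 5.22 to 5.52, and that of 10 endothelium markers 5.05 against 4.20 to 4.49. Fibroblast and stellate cell, neuron and oligodendrocyte markers also had their highest mean on this array, whereas cholangiocyte and astrocyte markers did not. No detection calls were used, so a low signal is reported only as a signal.

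**Figure D1:**
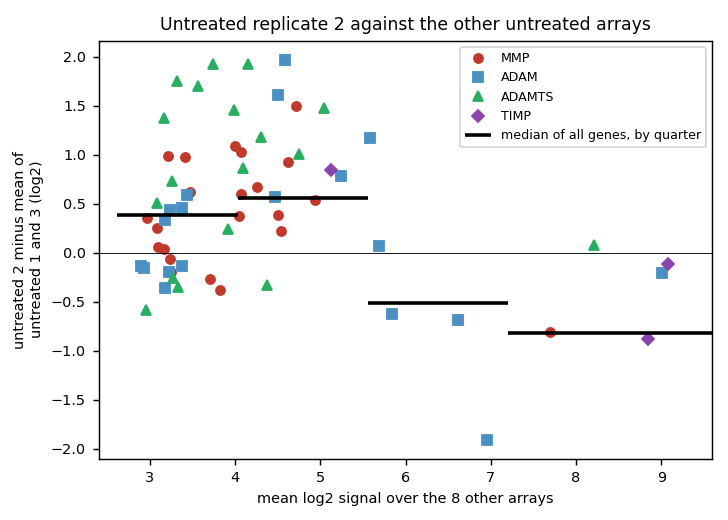
Each point is 1 member. The vertical axis is the log2 signal of untreated replicate 2 minus the mean of untreated replicates 1 and 3, and the horizontal axis is the mean log2 signal over the other 8 arrays, drawn to 9.6. Black lines are the medians of all genes in 4 equal bins of signal. ADAM19 was highest at 1.97 and ADAM17 lowest at −1.91.

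No MMP, ADAM, ADAMTS or TIMP gene passed the test at 800 ng/ml SPARC against untreated cells, at 200 ng/ml against untreated cells, or between the doses. The differences at 800 ng/ml ran from −0.92 for ADAM29 to 0.70 for ADAMTS6 on the log2 scale, and the smallest p-values were those of ADAMTS18, which had a lower signal, and ADAMTS6, which had a higher one. A gene was called changed when its p-value from a linear model with moderated variances (limma), adjusted by Benjamini-Hochberg over all 17687 genes, was under 0.05. That rule called 0 genes, or 0% of all genes, in each comparison. With weights estimated for each array instead, 2 members passed at 800 ng/ml, ADAMTS18 and ADAMTS6, and 6 at 200 ng/ml, ADAM19, ADAMTS10, ADAMTS4, ADAMTS6, MMP24 and TIMP4, in a fit that called 4.14% and 11.1% of all genes in these comparisons and 0.0339% between the doses. The members' shares were 3.23% and 9.68%, below those of all genes. That fit gave untreated replicate 1 a weight of 10.7 and untreated replicate 2 a weight of 0.0399. Among members the smallest adjusted p was 0.659 at 800 ng/ml, 0.966 at 200 ng/ml and 0.999 between the doses. At an unadjusted p under 0.05 there were 5 members at 800 ng/ml (4.17% of all genes), 0 members at 200 ng/ml (1.78% of all genes) and 1 member between the doses (2.41% of all genes).

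The size of change that the data still allow is given by the 95% intervals. At 800 ng/ml the interval of 46 of the 62 members lay wholly within 2-fold either way of untreated cells (72.8% of all genes). Without untreated replicate 2 this held for 57 members (97.5% of all genes). At 200 ng/ml these numbers were 50 (83.3% of all genes) and 58 (96.5% of all genes). Without that array the members' shares, 91.9% at 800 ng/ml and 93.5% at 200 ng/ml, were below those of all genes. For most members a change of more than 2-fold was thus outside the interval. A change of 1.5-fold was outside it for 17 members at the higher dose and 14 at the lower one. Without untreated replicate 2 these numbers were 36 and 33. Over all 17687 genes they were 3705 and 4242, and 12249 and 10833 without that array.

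The members as a whole leaned toward lower signals at 800 ng/ml, with 43 lower and 19 higher and a median log2 difference of −0.12, beside 0.04 over all genes. Without untreated replicate 2 there were 32 lower and 30 higher, with a median of −0.02 beside −0.01 over all genes. At 200 ng/ml 36 members were lower and 26 higher, with a median of −0.06 beside 0.03, and without that array 23 were lower and 39 higher, with a median of 0.05 beside −0.02. With each array centred on its median, 26 of the 62 were higher at 800 ng/ml, with a median of −0.07 beside 0.09. Among the 10 members left when the dimmest 50% of genes were taken out, 7 were higher at 800 ng/ml and 3 lower, with a median of 0.05 beside 0.21 over the genes left. The lean of the families also moved with untreated replicate 2. The ADAMTS median at 800 ng/ml was −0.28, with 15 of 18 lower, and became 0.06 without it. The MMP median was −0.21, with 16 of 22 lower, and became −0.04, while the ADAM median was −0.03 and became −0.05, and it was 0.02 with median centring. Of the 7 proteoglycan-cleaving ADAMTS genes, 7 had a lower signal at 800 ng/ml than in untreated cells, with a median of −0.37, and the number was the same with quantile normalization and with median centring. Without that array 3 were lower and the median was 0.06. Between the doses 36 members were lower at 800 ng/ml and 26 higher, with a median of −0.04 beside 0.01, and with median centring 31 were lower and 31 higher. The 3 TIMP genes were higher at 200 ng/ml than in untreated cells and lower at 800 than at 200 ng/ml, under quantile normalization and median centring as well, and these comparisons share the 200 ng/ml arrays.

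**Figure D2:**
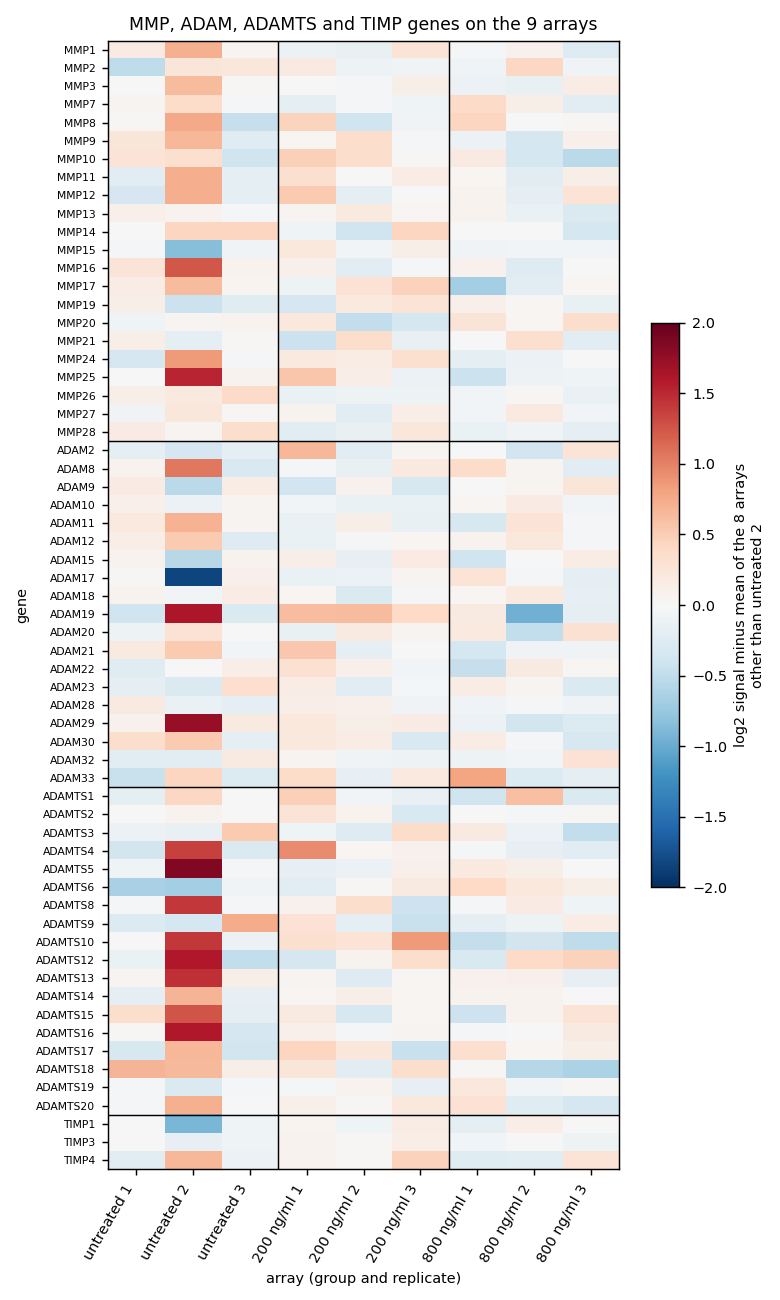
Each row is 1 gene and each column 1 array, in order of dose. Colour is the log2 signal minus its mean over all arrays except untreated replicate 2. The column of untreated replicate 2 holds the strongest colours, red for many ADAMTS genes and blue for ADAM17, TIMP1 and MMP15, while the other columns are mostly pale.

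The inhibitors come first among the individual genes. TIMP1, a secreted inhibitor of most MMPs, had log2 signals of 8.84, 7.93 and 8.77 in the 3 untreated replicates, 8.90, 8.76 and 9.0 at 200 ng/ml and 8.66, 8.98 and 8.86 at 800 ng/ml. All arrays but untreated replicate 2 lay between 8.66 and 9.0, and the groups overlapped. The log2 difference from untreated cells at 800 ng/ml was 0.32 with a 95% interval of −0.23 to 0.86, and 0.03 (−0.28 to 0.33) without untreated replicate 2.

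TIMP3, which binds the matrix and also blocks ADAM17 and several ADAMTS enzymes, had signals of 9.07, 8.92 and 8.99 in the 3 untreated replicates, 9.15, 9.11 and 9.21 at 200 ng/ml and 9.03, 9.09 and 8.98 at 800 ng/ml. The 3 arrays at 200 ng/ml were above all others, by a small margin. Its log2 difference at 200 ng/ml was 0.16 from untreated cells (limma, adjusted p = 0.966) and 0.13 without untreated replicate 2, and the difference of 800 from 200 ng/ml was −0.12 (adjusted p = 0.999). TIMP3 had the lowest SD of all members over the 8 arrays, 0.08, beside a member median of 0.22 and a median of 0.20 over all genes.

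TIMP4, the inhibitor best known from heart and vessels, had signals of 4.89, 5.79 and 5.0 in the 3 untreated replicates, 5.20, 5.15 and 5.59 at 200 ng/ml and 4.89, 4.90 and 5.39 at 800 ng/ml. Replicate 3 was the highest at both SPARC doses, and the groups overlapped. The log2 differences from untreated cells were 0.08 at 200 ng/ml and −0.17 at 800 ng/ml. Leaving out untreated replicate 2, they were 0.36 (−0.07 to 0.79) and 0.11 (−0.32 to 0.54), so the sign at 800 ng/ml turned.

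Among the membrane-type MMPs, which sit at the cell surface, MMP15 (MT2-MMP) had signals of 7.67, 6.84 and 7.63 in the 3 untreated replicates, 7.91, 7.65 and 7.82 at 200 ng/ml and 7.62, 7.64 and 7.64 at 800 ng/ml. Its 3 values at 800 ng/ml were nearly the same and lay just below the lowest value at 200 ng/ml. It was among the members with the smallest p at 200 ng/ml, with a log2 difference from untreated cells of 0.41 ± 0.23 (SE), which was 0.14 ± 0.12 without untreated replicate 2.

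MMP14 (MT1-MMP), the activator of pro-MMP2, had 4.52, 4.97 and 4.96 in the 3 untreated replicates, 4.45, 4.14 and 4.97 at 200 ng/ml and 4.54, 4.52 and 4.19 at 800 ng/ml. The groups overlapped, and the difference at 800 ng/ml was −0.40 (−0.94 to 0.13), and −0.33 without untreated replicate 2. MMP2, a gelatinase that degrades denatured collagen and basement membrane collagen, had 3.99, 4.74 and 4.72 in the 3 untreated replicates, 4.68, 4.40 and 4.43 at 200 ng/ml and 4.43, 4.92 and 4.43 at 800 ng/ml. The low array was untreated replicate 1 and the high one 800 ng/ml replicate 2, so the spread within groups exceeded the difference at 800 ng/ml of 0.11 (−0.43 to 0.65). It was 0.24 (−0.29 to 0.76) without untreated replicate 2.

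MMP17 (MT4-MMP), which is held in the membrane by a glycolipid anchor, had 5.08, 5.57 and 5.0 in the 3 untreated replicates, 4.83, 5.22 and 5.40 at 200 ng/ml and 4.26, 4.72 and 4.97 at 800 ng/ml. All 3 arrays at 800 ng/ml lay below all untreated arrays, replicate 3 by a narrow margin, and the 200 ng/ml arrays overlapped both. Its log2 difference at 800 ng/ml was −0.56 ± 0.25 (SE, limma, adjusted p = 0.659), −0.38 ± 0.22 without untreated replicate 2, and −0.50 against 200 ng/ml.

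MMP16 (MT3-MMP), another membrane-type enzyme, had 4.25, 5.24 and 4.06 in the 3 untreated replicates, 4.09, 3.79 and 3.98 at 200 ng/ml and 4.08, 3.74 and 3.99 at 800 ng/ml. Only untreated replicate 2 was clear of the rest. The differences of −0.58 at 800 ng/ml and −0.56 at 200 ng/ml became −0.22 and −0.20 without it, a change of more than 1.5 times. Between the doses all 6 membrane-type MMPs had a lower signal at 800 than at 200 ng/ml, with a median log2 difference of −0.24 beside 0.01 over all genes, and none passed the test. With quantile normalization or median centring 5 of the 6 were lower.

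The gelatinases and collagenases are secreted MMPs. MMP9, the second gelatinase, had 4.50, 4.93 and 4.02 in the 3 untreated replicates, 4.30, 4.60 and 4.24 at 200 ng/ml and 4.15, 3.91 and 4.36 at 800 ng/ml, and MMP1, the interstitial collagenase that opens fibrillar collagen, had 4.23, 4.78 and 4.13 in the 3 untreated replicates, 3.96, 3.93 and 4.34 at 200 ng/ml and 4.03, 4.16 and 3.81 at 800 ng/ml. For both genes only untreated replicate 2 lay above all treated arrays, and the groups overlapped. The differences at 800 ng/ml were −0.35 (−0.89 to 0.20) for MMP9 and −0.38 (−0.87 to 0.12) for MMP1, and −0.12 and −0.18 without untreated replicate 2.

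MMP7 (matrilysin), a small MMP made by epithelia, had 3.02, 3.32 and 2.93 in the 3 untreated replicates, 2.76, 2.94 and 2.88 at 200 ng/ml and 3.35, 3.09 and 2.74 at 800 ng/ml. The 800 ng/ml arrays spanned the whole range of the 9 arrays, and the difference from untreated cells was −0.03 (−0.49 to 0.42), and 0.08 without untreated replicate 2. MMP26, the other matrilysin, known from endometrium, had 3.35, 3.43 and 3.63 in the 3 untreated replicates, 3.11, 3.14 and 3.13 at 200 ng/ml and 3.18, 3.25 and 3.11 at 800 ng/ml. Each of the 6 treated arrays was below each untreated array, and the 200 ng/ml values were nearly alike. MMP26 lay in the dimmest of the 4 bins of signal. Its log2 difference was −0.34 ± 0.17 at 200 ng/ml and −0.29 ± 0.17 at 800 ng/ml (SE, limma, adjusted p = 0.966 and 0.659), and −0.36 and −0.31 without untreated replicate 2. Both comparisons share the untreated arrays.

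Of the genes whose promoters are printed above, MMP10 (stromelysin-2), which cuts proteoglycans and activates other MMPs, had 4.33, 4.36 and 3.64 in the 3 untreated replicates, 4.52, 4.39 and 4.06 at 200 ng/ml and 4.23, 3.69 and 3.51 at 800 ng/ml. At 800 ng/ml replicate 1 matched the 200 ng/ml arrays while replicates 2 and 3 were lower. MMP20 (enamelysin), an enzyme of tooth enamel, had 3.01, 3.14 and 3.17 in the 3 untreated replicates, 3.30, 2.60 and 2.74 at 200 ng/ml and 3.34, 3.12 and 3.44 at 800 ng/ml. It was high in 200 ng/ml replicate 1 and low in the other replicates of that dose. The differences of 800 from 200 ng/ml were −0.52 ± 0.26 for MMP10 and 0.42 ± 0.22 for MMP20 (SE, limma, adjusted p = 0.999 for each), in opposite directions.

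**Figure D3:**
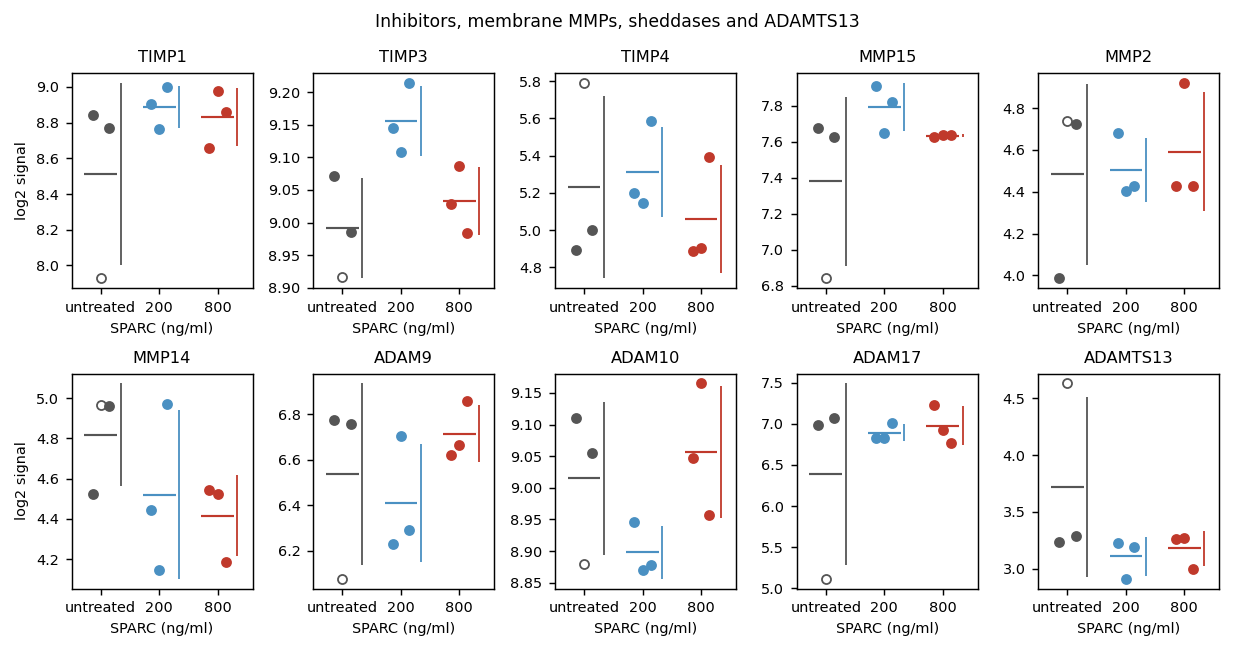
Log2 signals of 10 members by SPARC dose. Points are single arrays, in order of replicate, with untreated replicate 2 open. Horizontal lines are means of 3 arrays and vertical lines show ± 1 SD. TIMP1, MMP15 and ADAM17 had a single low point in untreated replicate 2, and ADAMTS13 a single high one.

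ADAM10 and ADAM17 are the main sheddases of cells, which release Notch, cytokines and growth factor receptor ligands from the surface. ADAM10 had 9.11, 8.88 and 9.06 in the 3 untreated replicates, 8.95, 8.87 and 8.88 at 200 ng/ml and 9.05, 9.17 and 8.96 at 800 ng/ml. The 3 arrays at 800 ng/ml lay above the 3 at 200 ng/ml and within the range of the untreated ones or just above it. The difference of 800 from 200 ng/ml was 0.16 (−0.22 to 0.54), and the difference of 800 ng/ml from untreated cells was 0.04 (−0.34 to 0.42), which turned to −0.03 (−0.28 to 0.23) without untreated replicate 2.

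ADAM17 (TACE), the enzyme that releases TNF, had 6.99, 5.12 and 7.06 in the 3 untreated replicates, 6.83, 6.83 and 7.01 at 200 ng/ml and 7.23, 6.93 and 6.77 at 800 ng/ml. Untreated replicate 2 was far below every other array. Its deviation from the mean of untreated replicates 1 and 3 was −1.91 log2 units, the lowest of any member. The differences of 0.59 at 800 ng/ml and 0.50 at 200 ng/ml became −0.05 (−0.39 to 0.29) and −0.14 (−0.47 to 0.20) without it, so the direction at both doses turned.

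ADAM9, a sheddase with roles in cell adhesion, had 6.78, 6.08 and 6.76 in the 3 untreated replicates, 6.23, 6.71 and 6.29 at 200 ng/ml and 6.62, 6.67 and 6.86 at 800 ng/ml. At 200 ng/ml replicates 1 and 3 were lower than replicate 2, which lay with the 800 ng/ml arrays. Without untreated replicate 2 its difference at 200 ng/ml was −0.36 ± 0.16 (SE, limma, adjusted p = 0.441), against −0.13 ± 0.23 with all arrays.

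ADAM19 (meltrin beta), which can release neuregulin, varied most among all members over the 8 arrays, with an SD of 0.56. Its signals were 4.18, 6.20 and 4.29 in the 3 untreated replicates, 5.21, 5.22 and 4.99 at 200 ng/ml and 4.77, 3.62 and 4.40 at 800 ng/ml. The 200 ng/ml arrays lay close together and above all 800 ng/ml arrays, which were themselves spread over more than 1 log2 unit. The mean was 4.26 ± 0.59 at 800 ng/ml and 5.14 ± 0.13 at 200 ng/ml (SD, n = 3 each), a log2 difference of −0.88 ± 0.47 (SE, limma, adjusted p = 0.999). Without untreated replicate 2, which was at 6.20, the SE fell to 0.25 (adjusted p = 0.207), and the difference of 200 ng/ml from untreated cells was 0.90 ± 0.28 (adjusted p = 0.325) in place of 0.24 ± 0.47.

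ADAM33, a gene studied in asthma, had 4.80, 5.67 and 4.98 in the 3 untreated replicates, 5.61, 5.08 and 5.45 at 200 ng/ml and 6.03, 4.98 and 5.05 at 800 ng/ml. At 800 ng/ml replicate 1 was about 1 log2 unit above replicates 2 and 3, and the groups overlapped. Its difference at 800 ng/ml was 0.20 (−0.49 to 0.90), and 0.46 (−0.20 to 1.13) without untreated replicate 2.

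7 ADAMs on the array lack the catalytic zinc site and act through adhesion or in fertilisation. ADAM29, a testis gene, had 4.60, 6.25 and 4.68 in the 3 untreated replicates, 4.72, 4.62 and 4.68 at 200 ng/ml and 4.40, 4.13 and 4.23 at 800 ng/ml. All 3 arrays at 800 ng/ml were below the other 6. The difference from untreated cells was −0.92 ± 0.36 (SE, limma, adjusted p = 0.659) and shrank to −0.38 ± 0.12 without untreated replicate 2 (adjusted p = 0.895). The difference from 200 ng/ml was −0.42 ± 0.36, with an SE of 0.11 without that array (adjusted p = 0.198).

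ADAM11, ADAM22 and ADAM23 are neuronal surface proteins, and ADAM22 and ADAM23 bind LGI1 at synapses. They are given because 8 of 10 astrocyte markers were higher at 800 ng/ml than in untreated cells, beside 9659 of all 17687 genes. GFAP was higher by 1.71 and NTRK2 by 2.19 log2 units, while ALDH1L1 and GJA1 were at −0.34 and −0.50. In 800 ng/ml replicate 1, GFAP (4.54) and NTRK2 (3.63) lay within the range of the untreated arrays. Of 9 neuron markers 2 were higher, NCAM1 by 1.45 and NEFM by 0.38, and 7 lower, with a median of −0.11. NCAM1 had 5.42, 6.68 and 7.16 in the 3 replicates at 800 ng/ml. Without untreated replicate 2, 6 neuron markers were higher and the median was 0.13. Of 7 oligodendrocyte markers 2 were higher and 5 lower, with a median of −0.08. Without untreated replicate 2 there were 5 higher and the median was 0.26. The summed linear signal of the 10 astrocyte markers was 261 to 804 at 800 ng/ml. It was 213 to 249 at 200 ng/ml and 223 to 315 in untreated cells. The mean log2 signal of the astrocyte markers was 4.30 in 800 ng/ml replicate 1, 5.75 in replicate 2 and 5.68 in replicate 3. ADAM22 had 5.24, 5.87 and 5.73 and ADAM11 4.15, 4.75 and 4.45 in these replicates, so replicate 1 was lowest for both. ADAM23 had 3.34, 3.24 and 2.89, with replicate 1 highest. The differences of 800 ng/ml from untreated cells were −0.04 (−0.52 to 0.44) for ADAM22, −0.34 (−0.84 to 0.16) for ADAM11 and 0.02 (−0.48 to 0.51) for ADAM23. When untreated replicate 2 was left out they were −0.02 for ADAM22, −0.15 for ADAM11 and −0.11 for ADAM23, whose sign turned. Among the 800 ng/ml arrays, replicate 1, where the mean of the astrocyte markers was lowest, was highest for ADAM19, ADAM33 and ADAMTS18. The same held for other members, ADAM17, ADAMTS6 and MMP10 among them. For others, MMP17, MMP25 and ADAMTS12 among them, replicate 1 was the lowest. These genes were picked after their values were seen. The share of members, or of all genes, with either order was not counted. The part of the marker difference in these values was not tested.

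ADAMTS18 and ADAMTS6 had the smallest p of all members at 800 ng/ml. ADAMTS18, a gene of hereditary eye disease whose substrates are little known, had 4.60, 4.56 and 4.03 in the 3 untreated replicates, 4.16, 3.70 and 4.26 at 200 ng/ml and 3.93, 3.35 and 3.28 at 800 ng/ml. Each 800 ng/ml array was below each untreated array, replicate 1 by a narrow margin, and the 200 ng/ml arrays overlapped both groups. ADAMTS18 lay in the dimmest of the 4 bins of signal. The mean was 3.52 ± 0.36 at 800 ng/ml and 4.40 ± 0.32 in untreated cells (SD, n = 3 each), a log2 difference of −0.88 ± 0.25 (SE) with an interval of −1.43 to −0.32 (limma, adjusted p = 0.659). Untreated replicate 2 lay between the other untreated replicates for this gene, and without it the difference was −0.80 ± 0.25 (adjusted p = 0.895). At 200 ng/ml the difference was −0.35 ± 0.25 and −0.27 without that array, and 800 against 200 ng/ml gave −0.52 ± 0.25.

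ADAMTS6, an enzyme of fibrillin microfibrils, was the only member without overlap that was higher at 800 ng/ml than in untreated cells. Its signals were 3.73, 3.69 and 4.31 in the 3 untreated replicates, 4.16, 4.40 and 4.55 at 200 ng/ml and 4.77, 4.58 and 4.50 at 800 ng/ml. The untreated and 200 ng/ml arrays overlapped, and untreated replicate 3 was the highest of its group. The mean was 4.61 ± 0.14 at 800 ng/ml and 3.91 ± 0.35 in untreated cells (SD, n = 3 each), a difference of 0.70 ± 0.22 (SE) with an interval of 0.23 to 1.18 (limma, adjusted p = 0.659), and 0.59 ± 0.19 without untreated replicate 2. It also had the smallest p of all members at 200 ng/ml, with 0.46 ± 0.22 (adjusted p = 0.966) and 0.35 without that array, where the same untreated arrays were used.

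ADAMTS10, the closest relative of ADAMTS6 and the gene of a form of Weill-Marchesani syndrome, had 5.05, 6.46 and 4.93 in the 3 untreated replicates, 5.37, 5.32 and 5.91 at 200 ng/ml and 4.57, 4.69 and 4.54 at 800 ng/ml. The 800 ng/ml arrays lay close together and below all 6 others. The mean was 4.60 ± 0.08 at 800 ng/ml and 5.53 ± 0.32 at 200 ng/ml (SD, n = 3 each), a log2 difference of −0.93 ± 0.35 (SE, limma, adjusted p = 0.999). Untreated replicate 2, at 6.46, widened the shared spread, and without it the same difference had an SE of 0.16 and an interval of −1.29 to −0.58 (adjusted p = 0.167), the smallest p of any member in any comparison with or without that array. Without it ADAMTS10 was 0.54 ± 0.18 at 200 ng/ml and −0.39 ± 0.18 at 800 ng/ml relative to untreated cells, on opposite sides, in place of 0.05 and −0.88 with all arrays.

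**Figure D4:**
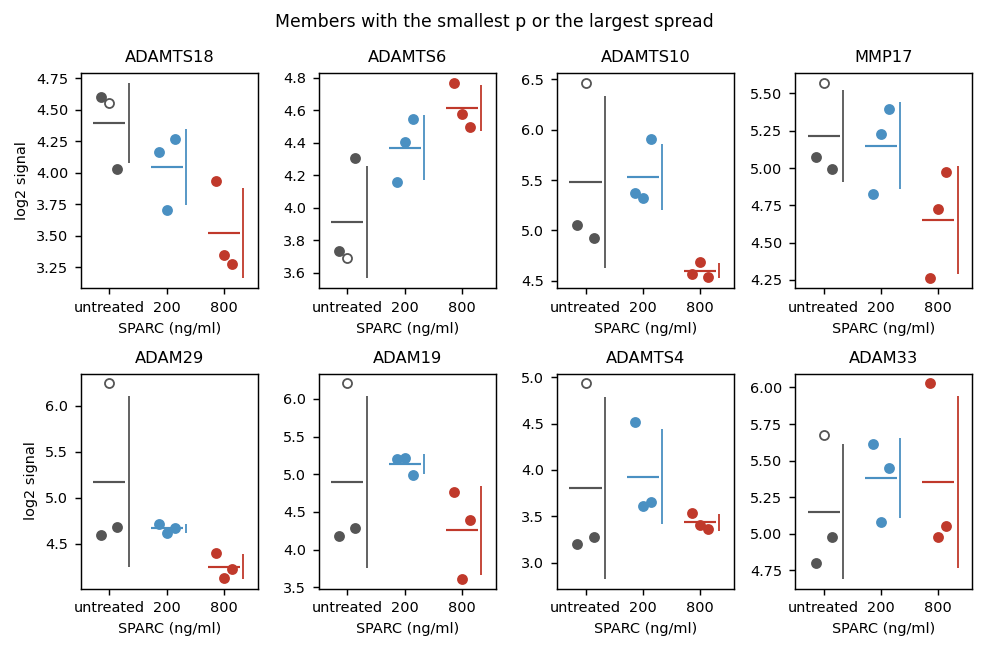
Log2 signals of 8 members by SPARC dose, chosen by the smallest p or the largest SD. Points are single arrays, in order of replicate, with untreated replicate 2 open. Horizontal lines are means of 3 arrays and vertical lines show ± 1 SD. The 800 ng/ml arrays of ADAMTS10 lie below all others, whereas those of ADAM19 and ADAM33 are spread.

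ADAMTS4 (aggrecanase-1), which cuts the cartilage proteoglycan aggrecan, had 3.20, 4.94 and 3.28 in the 3 untreated replicates, 4.52, 3.61 and 3.65 at 200 ng/ml and 3.54, 3.40 and 3.36 at 800 ng/ml. Replicate 1 at 200 ng/ml was nearly 1 log2 unit above replicates 2 and 3. The difference of 800 from 200 ng/ml was −0.49 ± 0.41 (SE, limma, adjusted p = 0.999), with no overlap. ADAMTS1, another proteoglycan-cleaving enzyme, had 2.91, 3.50 and 3.08 in the 3 untreated replicates, 3.56, 3.04 and 2.94 at 200 ng/ml and 2.69, 3.69 and 2.79 at 800 ng/ml, with 1 high array in each treated group. Its difference at 800 ng/ml was −0.10 (−0.75 to 0.54), and 0.06 without untreated replicate 2.

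ADAMTS13, the enzyme that cuts von Willebrand factor and that stellate cells of the liver make, had 3.23, 4.63 and 3.29 in the 3 untreated replicates, 3.23, 2.91 and 3.19 at 200 ng/ml and 3.26, 3.27 and 3.0 at 800 ng/ml. Its untreated mean was set by replicate 2, the other 8 arrays lying between 2.91 and 3.29. The difference at 200 ng/ml was −0.61 ± 0.33 with all arrays and −0.15 ± 0.14 without replicate 2. Among the procollagen N-proteinases, which trim newly made collagen, ADAMTS2 had signals between 7.91 and 8.47 on all arrays, and the interval of its difference at 800 ng/ml was −0.44 to 0.39, or −0.36 to 0.36 without untreated replicate 2. ADAMTS2 was chosen after its values were seen.

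**Figure D5:**
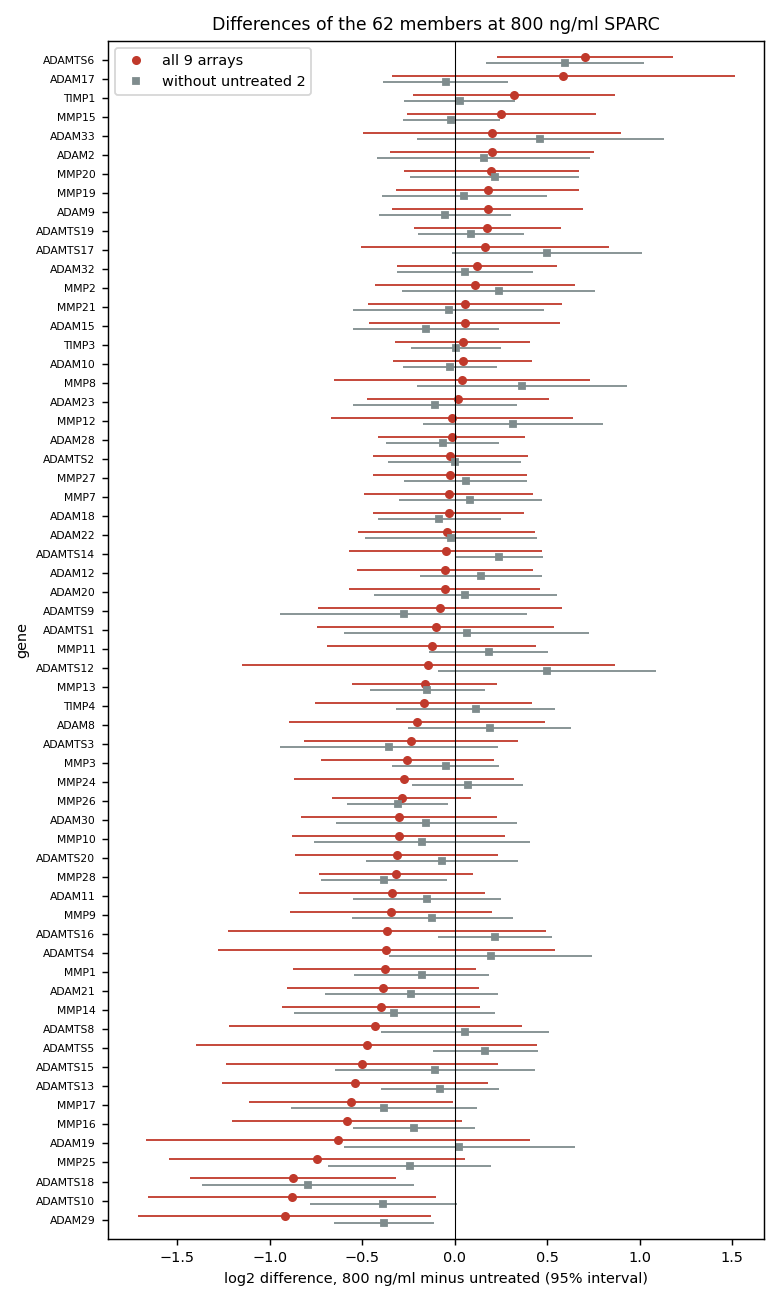
Log2 difference of 800 ng/ml SPARC from untreated cells for all 62 members, with 95% intervals, from all 9 arrays (red circles) and without untreated replicate 2 (grey squares). Positive values mean higher at 800 ng/ml. Of the 62 grey intervals 55 are shorter than the red ones, and ADAM29, ADAMTS6 and ADAMTS18 have intervals on 1 side of 0 in both fits.

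Counting members whose arrays did not overlap gave 9 of 62 for 800 ng/ml against untreated cells, where 11.2% of all genes did not overlap. 8 of these were lower at 800 ng/ml (5.14% of all genes), namely ADAM21, ADAM29, ADAMTS10, ADAMTS18, MMP17, MMP25, MMP26 and MMP28, and ADAMTS6 was higher (6.08% of all genes). For 200 ng/ml against untreated cells there were 3, with 6.98% of all genes, namely ADAMTS13 and MMP26 on the lower side (3.06% of all genes) and TIMP3 on the higher side (3.92% of all genes). Between the doses there were 8, with 21.9% of all genes. ADAM10 was higher at 800 ng/ml (12.1% of all genes), and ADAM19, ADAM29, ADAMTS10, ADAMTS4, MMP15, MMP24 and TIMP3 were lower (9.72% of all genes). With both directions counted together, the shares among members, 14.5%, 4.84% and 12.9%, were near or below those of all genes. By direction at 800 ng/ml against untreated cells, the 8 of 62 members on the lower side were a larger share than the 5.14% of all genes. The 1 on the higher side was a smaller share than 6.08%. These shares were not tested. Members outside the naming rule in these counts were chosen after their values were seen.

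Leaving out untreated replicate 2 raised these counts to 13 members at 800 ng/ml (22.3% of all genes) and 15 at 200 ng/ml (31.5% of all genes). Only 2 arrays then stood on the untreated side. Unadjusted p-values under 0.05 were then found for 6 members at 800 ng/ml (5.36% of all genes), 7 at 200 ng/ml (11.3% of all genes) and 9 between the doses (15.3% of all genes), and 0 passed the adjusted test in each comparison.

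Other genes that act with these enzymes did not pass the test either, and the gene with the smallest p of each list is given for each comparison, as a log2 difference. Values without untreated replicate 2 follow those from untreated cells in parentheses. Of the proprotein convertases and the plasminogen system, which hold activators of MMPs and also inhibitors such as SERPINE2 and SERPINF2, 9 were measured. PLAUR, the urokinase receptor, had −0.63 (−0.52) at 800 ng/ml and −0.34 between the doses, and FURIN, which matures many ADAMs and membrane MMPs, had 0.33 (0.07) at 200 ng/ml. Of 17 measured substrates of ADAM10 or ADAM17, EGF had −0.63 (−0.43) at 800 ng/ml, TGFA had −0.73 (−0.32) at 200 ng/ml and CD44 had −0.29 between the doses. Of 9 maturation factors of these sheddases, RHBDF2 (iRhom2), which brings ADAM17 to the surface, had −0.47 (−0.16) at 800 ng/ml, TSPAN10 had 0.24 (0.48) at 200 ng/ml and FRMD8 had −0.48 between the doses.

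Among 16 other matrix-degrading enzymes, PAPPA, which cuts insulin-like growth factor binding proteins, had −0.42 (−0.16) at 800 ng/ml, and TLL1, a procollagen C-proteinase, had 0.42 (0.41) at 200 ng/ml and −0.43 between the doses. Of 12 other regulators, the proteoglycan SPOCK3 had −0.47 (−0.20) at 800 ng/ml and −0.33 (−0.06) at 200 ng/ml, and SPOCK2 had −0.20 between the doses. Of 8 ADAMTS-like and related proteins, ADAMTSL2 had −0.21 (−0.29) at 800 ng/ml, ADAMTSL4 had 0.29 (0.35) at 200 ng/ml and ADAMTSL3 had 0.35 between the doses. With untreated replicate 2 left out the smallest p at 800 ng/ml belonged to other genes in 4 of the lists, namely TSPAN5 (0.27), CDH1 (−0.36), HYAL2 (−0.31) and THBS2 (0.43). At 200 ng/ml it belonged to other genes in 5, namely RHBDF1 (0.65), CDH1 (−0.34), TLL2 (0.48), A2M (−0.21) and PLAT (0.68), and between the doses in 6 of the 6. In these 6 lists, which held 71 measured genes, 0 genes passed in each comparison (limma). At an unadjusted p under 0.05 there were 4 at 800 ng/ml (4.17% of all genes), 1 at 200 ng/ml (1.78% of all genes) and 1 between the doses (2.41% of all genes).

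Of the 37 members whose promoters were searched, those with and without each motif are set side by side without a test. The 4 members with an AP-1 motif, MMP7, MMP10, MMP20 and ADAMTS12, had a median log2 difference at 800 ng/ml from untreated cells of −0.09, and the 33 without it −0.05. Without untreated replicate 2 these medians were 0.15 and −0.02, and between the doses they were 0.17 and −0.06. The 24 members with a GC box had a median of −0.05 at 800 ng/ml and the 13 without it −0.06. The genes of the MMP row did not share a direction at 800 ng/ml. MMP8 and MMP20 were above 0, at 0.04 and 0.20, and MMP1, MMP3, MMP7, MMP10, MMP12, MMP13 and MMP27 were below, between −0.38 for MMP1 and −0.02 for MMP12. Without untreated replicate 2, MMP7, MMP12 and MMP27 were above 0 as well, with MMP12 at 0.31 and MMP8 at 0.36.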

How the data were processed

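HepG2 RNA from 9 samples was measured on 1-colour arrays. The deposited values were used as log2 signal per transcript cluster, a scale read from their range. Per the submitters' processing notes R 3.0 was used, and how the authors corrected background and normalized is not given in the sources used here. Of 21448 clusters, 17709 had 1 gene symbol in the platform annotation and 3739 had none. The cluster with the highest mean was kept for each of 17687 genes.

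A linear model with 3 group means was fitted to all genes and all 9 arrays with limma 3.58.1 in R 4.3.3 (lmFit, eBayes). P-values were adjusted by Benjamini-Hochberg over all genes, and intervals are 95% confidence intervals. The number of arrays limits the precision. The steps were tested on simulated data. There each gene had the same spread on all arrays and no array stood apart as untreated replicate 2 does, so that test does not cover its effect. RefSeq (GRCh38.p14) gave symbols and promoters.

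Members and lists were chosen with earlier results of these data known. Values on every array are given for the TIMPs, for members known from matrix turnover, shedding or liver, for the 5 members with the smallest p in each comparison, for the 5 with the largest SD, and for ADAM11, ADAM22 and ADAM23. From each pathway list the gene with the smallest p is named. Alternatives were leaving out each array, quantile normalization, median centring, leaving out the dimmest 25% or 50% of genes, averaging clusters, a trended robust prior, a block for the replicate number, array weights, and a fit to only the 6 arrays compared.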

Additional observations from a re-analysis of the deposited data

How the results depend on the processing

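With array weights, 732 genes and 2 members passed at 800 ng/ml against untreated cells, with log2 differences of −1.11 for ADAMTS18 and 0.82 for ADAMTS6. At 200 ng/ml 1971 genes and 6 members passed, with 0.68 for ADAMTS6, and between the doses 6 genes and 0 members. Weights ran from 0.0399 for untreated replicate 2 to 10.7 for untreated replicate 1, so the untreated side rested mainly on 1 array. Leaving out 1 array at a time gave 0 to 12 genes at 800 ng/ml, 0 at 200 ng/ml and 0 to 15 between the doses. The counts of 12 and 15 came without 800 ng/ml replicate 1, and the number of members was 0 throughout. Every other alternative gave 0 genes and 0 members. For the 5 members with the smallest p in each comparison, 247 values under the alternatives kept their direction and their side of the threshold. The 3 given above passed the threshold. Several alternatives cannot change a member's difference, such as the trended prior, averaging clusters or leaving out an array of the group not compared. These members were also picked by their p in the same data, so the count of 247 does not measure robustness. Other members, ADAM17, ADAM10 and TIMP4 among them, turned direction at 800 ng/ml without untreated replicate 2. Leaving out the dimmest 25% of genes left 31 members, of which 11 were higher at 800 ng/ml than in untreated cells, and the dimmest 50% left 10, of which 7 were higher.

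Replicates of the same number in different groups had correlations of their deviations from the group means between −0.25 and 0.11. No shared replicate effect was thus visible. Untreated replicate 2 weighs on the untreated deviations and the labels state no pairing, so whether samples were handled as pairs is not settled. With the replicate number as a block, 0 genes and 0 members passed in each comparison. An offset before taking logs was not run because the values were already logs. With 3 arrays a group, the median 95% interval of a member reached 1.46-fold either way, and 1.34-fold without untreated replicate 2.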
